A study of Caenorhabditis elegans with 6 samples.

Results

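The transcription factors of the molting oscillator are the 7 genes *nhr-23*, *nhr-25*, *nhr-85*, *grh-1*, *myrf-1*, *bed-3* and *blmp-1*. They were chosen by symbol, and all 7 were matched to a WBGene identifier among the 46904 genes of the count tables. Poly(A) RNA-seq was performed on whole untreated L1 larvae of 3 strains, fed with *E. coli* on NGM plates, with 2 libraries per strain. The strains were TG2226, which carries *xpc-1(tm3886)*, RB1801, which carries *csb-1(ok2335)*, and the wild-type strain N2. *xpc-1* encodes the damage sensor of global repair and *csb-1* a protein of transcription-coupled repair, the branches of nucleotide excision repair that the study compared. The strains are 1 line each, and the sources give no hour of larval development for any library. They also do not say whether the 2 libraries of a strain came from separate cultures, so p-values measure the spread between these libraries, which may be technical.

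*C. elegans* larvae replace their cuticle in a molt at the end of each larval stage. Between molts a large set of epidermal genes, among them cuticle collagens, matrix proteins and proteases, is switched on and off once per stage. The transcription factors described here are themselves rhythmic in growing larvae and act upstream of that program, and each peaks at its own point of the cycle.

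The libraries held 41643033 to 48371365 reads assigned to genes. Values are CPM, reads relative to library size after scaling each library by edgeR's TMM factor, unless TPM is named. The TMM factors were 1.04 to 1.08 in 5 libraries and 0.720 in *csb-1* replicate 2. The 2 *csb-1* libraries stood apart from each other: the log2 ratio of replicate 1 over replicate 2 had an SD of 2.49 over the 18421 genes tested, against 0.648 in *xpc-1* and 0.594 in wild-type. The libraries are therefore given apart for every gene, as replicate 1 and then replicate 2 of a strain. The *xpc-1* gene had 18.04 and 17.93 CPM in *xpc-1*, 73.0 and 57.7 CPM in *csb-1*, and 43.5 and 40.1 CPM in wild-type. The *csb-1* gene had 17.5 CPM in *csb-1* replicate 1 and 8.04 CPM in replicate 2, against 20.6 and 22.9 CPM in wild-type. Reads summed over all exons cannot show whether a part of the gene is deleted, so this does not check the *csb-1* label.

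All 7 genes are protein-coding, and all passed the minimum of 10 reads in at least 2 libraries. The positions are those of the WBcel235 annotation in the count tables. *nhr-23* (WBGene00003622) spans 7214745 to 7221781 on chromosome I and *blmp-1* (WBGene00003847) 10409302 to 10414707, both on the plus strand. *grh-1* (WBGene00001707) spans 1259374 to 1268155 and *nhr-85* (WBGene00003675) 13055664 to 13062122, both on the minus strand of chromosome I. *myrf-1* (WBGene00004134) lies at 10496987 to 10502541 on the minus strand of chromosome II, *bed-3* (WBGene00009133) at 9916530 to 9921996 on the plus strand of chromosome IV, and *nhr-25* (WBGene00003623) at 13008493 to 13013962 on the plus strand of chromosome X. Counting did not use strand, and 2 of the genes share exon bases with a gene on the opposite strand. *nhr-85* shares 835 of its 2098 exon bases with *npr-14*, which had 26 to 207 reads per library, so its values are uncertain. *bed-3* shares 42 of 2276 exon bases with *dur-1*, which had 1974 to 9306 reads per library, while *bed-3* had 354 reads in *csb-1* replicate 2, so its low value there is uncertain.

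Per length, in TPM, *grh-1* was the most abundant of the 7 in wild-type, with 99.0 ± 5.47 TPM (SD, n = 2). *nhr-25* followed with 55.1 ± 4.403 TPM. *myrf-1* had 41.3 ± 0.814 TPM and *blmp-1* 40.4 ± 0.0270 TPM, neighbours that differed by about the spread of *myrf-1*. *bed-3* had 29.5 ± 0.724 TPM, *nhr-23* 17.1 ± 1.25 TPM and *nhr-85* 6.46 ± 2.12 TPM. The 7 genes spanned the percentiles 56.3 for *nhr-85* to 94.1 for *grh-1* among genes detected in wild-type, and the other steps of the order were wider than the spread between libraries. Read numbers were lowest for *nhr-85*, with 284 to 577 reads per library, so its levels are the least precise.

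Of the nuclear hormone receptors, *nhr-23*, the worm homolog of the ROR receptors and required for molting, had 56.4 and 58.3 CPM in *xpc-1*, 80.3 CPM in *csb-1* replicate 1, 26.6 CPM in *csb-1* replicate 2, and 35.9 and 40.0 CPM in wild-type. Both *xpc-1* libraries lay above both wild-type libraries, and the *csb-1* libraries lay outside all others, replicate 1 above and replicate 2 below. *nhr-25*, the homolog of Ftz-F1 and of vertebrate SF-1 and LRH-1, had 92.1 and 100.4 CPM in *xpc-1*, 105.8 and 61.3 CPM in *csb-1*, and 96.6 and 108.7 CPM in wild-type. Its *xpc-1* and wild-type values overlapped, and *csb-1* replicate 2 was the lowest library. *nhr-85*, the homolog of Rev-Erb and of the insect receptor E75, had 6.35 and 7.56 CPM in *xpc-1*, 7.11 and 8.15 CPM in *csb-1*, and 7.52 and 12.1 CPM in wild-type. The highest library of *nhr-85* was wild-type replicate 2, and the other 5 lay within a narrow range.

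Among the other DNA-binding factors, *grh-1*, the homolog of the epidermal factor Grainyhead, had 151 and 149 CPM in *xpc-1*, 183 CPM in *csb-1* replicate 1, 20.5 CPM in *csb-1* replicate 2, and 128 and 139.5 CPM in wild-type. *bed-3*, a BED zinc finger protein needed for molting, had 58.1 and 59.9 CPM in *xpc-1*, 87.8 and 10.2 CPM in *csb-1*, and 49.4 and 47.99 CPM in wild-type. Both genes had their lowest value of all 6 libraries in *csb-1* replicate 2 and their highest in *csb-1* replicate 1. *blmp-1*, the homolog of the zinc finger repressor Blimp-1, had 116 and 121 CPM in *xpc-1*, 209 and 96.8 CPM in *csb-1*, and 98.5 and 99.1 CPM in wild-type. Its *csb-1* replicate 1 stood far above the rest, while replicate 2 lay just under wild-type. *myrf-1*, a membrane-tethered factor that is cleaved to enter the nucleus, had 95.8 and 103 CPM in *xpc-1*, 116 and 149.5 CPM in *csb-1*, and 108 and 111 CPM in wild-type. It was the 1 factor whose highest value was in *csb-1* replicate 2 on this scale.

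**Figure D1:**
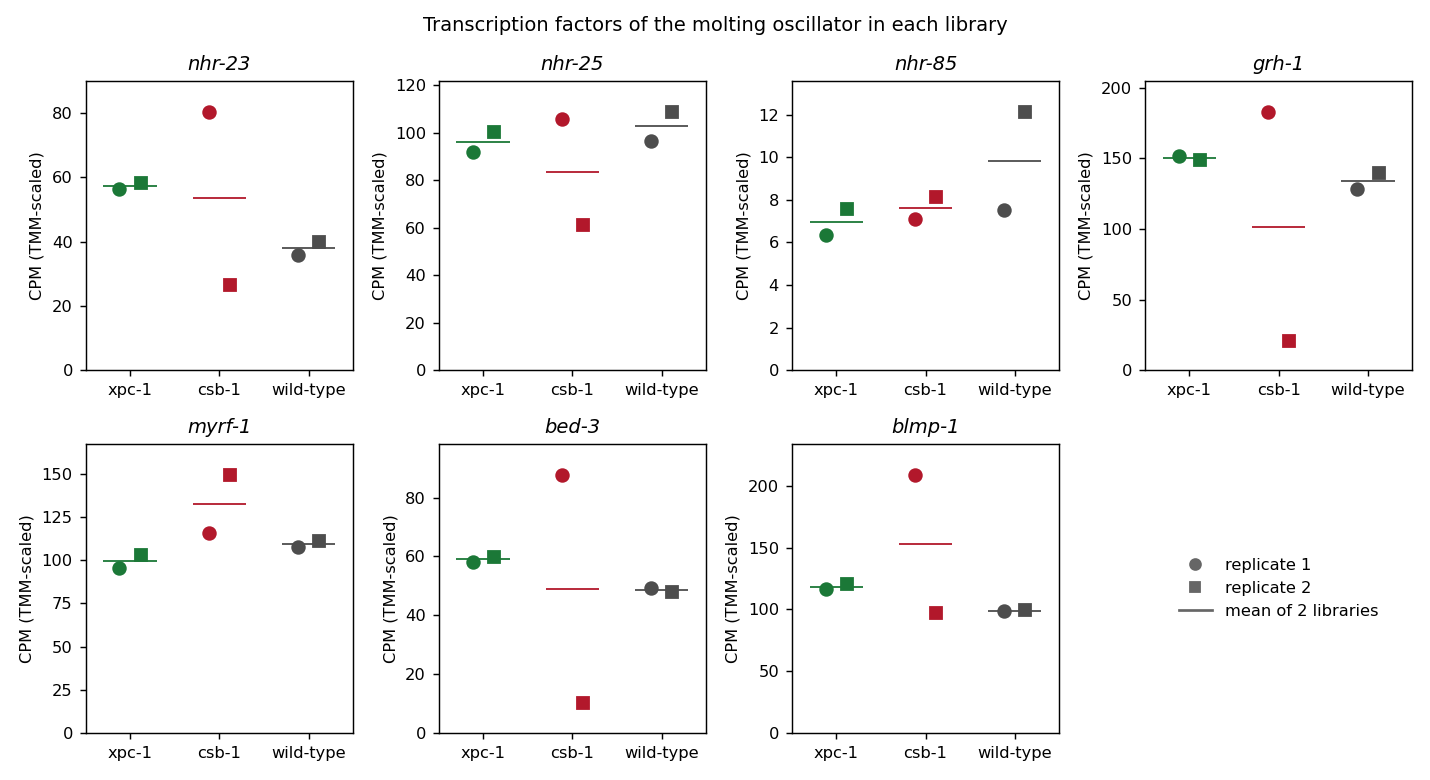
CPM scaled by TMM (vertical axis, each panel from 0) of the 7 factors in the *xpc-1*, *csb-1* and wild-type libraries, with replicate 1 as a circle, replicate 2 as a square and the mean of 2 libraries as a line. For *grh-1* and *bed-3* the *csb-1* points lie 183 against 20.5 CPM and 87.8 against 10.2 CPM apart, while the *xpc-1* and wild-type pairs lie close together.

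The factors differed widely in how much they varied. Over the 6 libraries the highest value was 8.91 times the lowest for *grh-1*, 8.64 times for *bed-3* and 3.02 times for *nhr-23*, against 1.56 times for *myrf-1*. Without *csb-1* replicate 2 these ratios were 1.42, 1.83, 2.24 and 1.21, so this library set most of the range of *grh-1* and *bed-3*. The range of *blmp-1* was 2.16 times with that library and 2.12 times without it, set by *csb-1* replicate 1. *nhr-25* ranged 1.77 times with it and 1.18 times without it.

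The 2 *csb-1* libraries were compared without a test, since they are replicates of 1 strain. *grh-1* had a log2 ratio of replicate 1 over replicate 2 of 3.15 (95% counting interval 2.997 to 3.31) and *bed-3* of 3.11 (2.89 to 3.34). *nhr-23* had 1.59 (1.45 to 1.74), *blmp-1* 1.11 (1.03 to 1.19) and *nhr-25* 0.79 (0.68 to 0.89). *nhr-85* had -0.20 (-0.53 to 0.13) and *myrf-1* -0.37 (-0.45 to -0.29). The intervals were computed on reads divided by 2, because each mate was counted, and they cover counting error only. Thus 4 of the 7 factors were more than 2-fold higher in replicate 1 and 0 were more than 2-fold lower, where 29.9% of the 18421 genes tested were higher and 27.5% lower by that measure. The median of the 7 was 1.11, against 0.09 over all genes tested. Between the *xpc-1* libraries 0 of 7 differed by more than 2-fold, with 4.80% of all genes above and 4.72% below, and between the wild-type libraries likewise 0 of 7, with 5.34% above and 3.30% below. Scaling by library size alone moved the *csb-1* median over all genes to 0.45 and that of the factors to 1.70, and *nhr-85* and *myrf-1* then had 0.39 and 0.22, so the sign of these factors depends on the scaling while that of the other 5 did not.

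**Figure D2:**
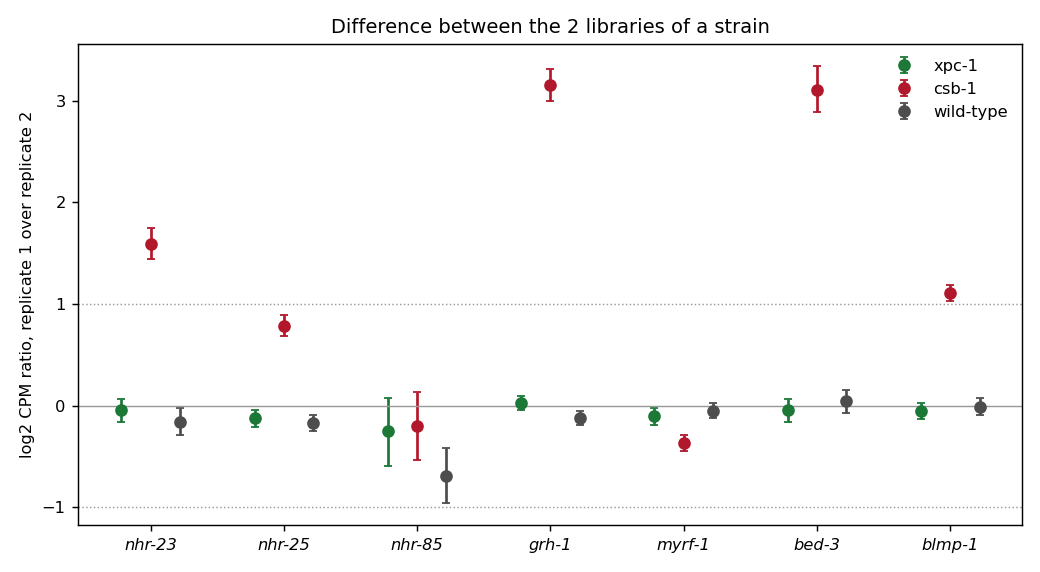
Log2 CPM ratio of replicate 1 over replicate 2 (vertical axis) for each factor in *xpc-1*, *csb-1* and wild-type, with 95% counting intervals as bars and dotted lines at 2-fold. The *csb-1* points of *nhr-23*, *grh-1*, *bed-3* and *blmp-1* lie above the upper line, and all *xpc-1* and wild-type points lie between the lines.

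The share of each factor in the set within a library does not depend on library scaling. *grh-1* took 36.1% and 34.4% of the summed TPM of the 7 genes in *xpc-1*, 32.6% in *csb-1* replicate 1, 9.06% in *csb-1* replicate 2, and 34.1% and 34.5% in wild-type. *bed-3* took 11.4% in both *xpc-1* libraries, 12.8% and 3.68% in *csb-1*, and 10.8% and 9.73% in wild-type. *myrf-1* moved the other way, with 11.7% and 12.1% in *xpc-1*, 10.5% and 33.7% in *csb-1*, and 14.6% and 14.0% in wild-type. The makeup was thus led by *grh-1* in 5 libraries and by *myrf-1* in *csb-1* replicate 2. *nhr-23* took 8.18% and 8.20% in *xpc-1*, 8.69% and 7.13% in *csb-1*, and 5.79% and 6.01% in wild-type. *blmp-1* took 20.6% and 23.6% in *csb-1*, above the 13.6% to 15.4% of the *xpc-1* and wild-type libraries. The summed TPM of the 7 was 335 and 338 in *xpc-1*, 492 and 92.0 in *csb-1*, and 279 and 298 in wild-type. The summed CPM was 577 and 598 in *xpc-1*, 789 and 373 in *csb-1*, and 524 and 559 in wild-type, so *csb-1* replicate 2 lay further under wild-type in TPM than in CPM.

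**Figure D3:**
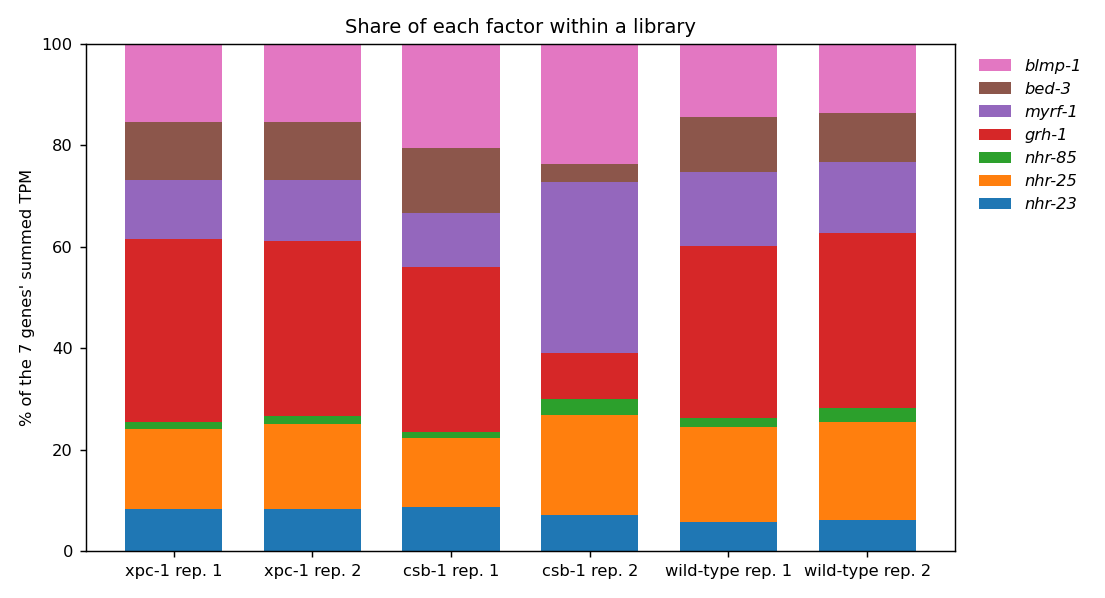
Share of each factor in the summed TPM of the 7 genes (vertical axis, percent), 1 bar per library. *grh-1* takes 32.6% to 36.1% in 5 libraries and 9.06% in *csb-1* replicate 2, where *myrf-1* takes 33.7%.

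Expression in *xpc-1* was then compared with wild-type, in a fit of these 4 libraries. *nhr-23*, *bed-3* and *blmp-1* were higher in *xpc-1* by the quasi-likelihood test of edgeR, adjusted by Benjamini-Hochberg over 17924 genes. *nhr-23* had a log2 fold change of 0.61 (SE 0.099, adjusted p = 0.00162), *bed-3* of 0.30 (SE 0.090, adjusted p = 0.0299) and *blmp-1* of 0.28 (SE 0.084, adjusted p = 0.0278). *grh-1* had 0.18 (SE 0.088, adjusted p = 0.135), *nhr-25* -0.07 (SE 0.097, adjusted p = 0.591), *myrf-1* -0.12 (SE 0.087, adjusted p = 0.312) and *nhr-85* -0.48 (SE 0.24, adjusted p = 0.143), and these did not pass the threshold of 0.05. The count was thus 3 of 7 higher and 0 of 7 lower, where 20.0% of all genes tested were higher and 17.1% lower. The median log2 fold change of the 7 was 0.18, against -0.02 over all genes. Both *xpc-1* libraries lay above both wild-type libraries for *nhr-23*, *grh-1*, *bed-3* and *blmp-1*, 4 of 7, as for 32.9% of genes, and below them for *myrf-1*, 1 of 7, as for 35.6% of genes.

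The calls of *bed-3* and *blmp-1* were lost with each of the 4 libraries left out in turn, with adjusted p from 0.0925 to 0.141 for *bed-3* and from 0.1003 to 0.165 for *blmp-1*, and with upper-quartile scaling (0.0904 and 0.0870), while that of *nhr-23* was kept in these fits. *nhr-85* passed with no filter on low counts (adjusted p = 0.0453) and without wild-type replicate 1 (-0.82, adjusted p = 0.0304), and its value without wild-type replicate 2 was -0.11. With all 6 libraries in 1 fit, edgeR called 0 of 7 factors and 0% of 18421 genes, with 267 genes at an unadjusted p under 0.05, since the shared estimate of spread then includes the *csb-1* libraries.

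Next, *csb-1* was compared with wild-type in the fit of all 6 libraries, and edgeR called 0 of 7 factors and 0% of the 18421 genes tested. At an unadjusted p under 0.05 there were 1210 genes, and DESeq2 called 512 genes, none of them a factor of this set. The log2 fold changes were 0.63 for *blmp-1* (SE 0.40, edgeR's adjusted p = 0.828), 0.49 for *nhr-23* (SE 0.54), 0.28 for *myrf-1* (SE 0.23), 0.01 for *bed-3* (SE 0.93), -0.30 for *nhr-25* (SE 0.32), -0.36 for *nhr-85* (SE 0.40) and -0.40 for *grh-1* (SE 0.95). The standard errors exceeded the changes for 5 of the 7 factors, all but *blmp-1* and *myrf-1*, and for *grh-1* a mean over libraries as far apart as 183 and 20.5 CPM describes neither library.

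Each *csb-1* library was therefore set against wild-type alone, in fits without the other one, where the lone library is assumed to vary like the *xpc-1* and wild-type libraries. Such a value compares a library, not the strain. In *csb-1* replicate 1, 4 of 7 factors were higher than wild-type and 0 were lower by edgeR's test, where 26.9% of all genes were higher and 26.1% lower. These were *nhr-23* with a log2 fold change of 1.10 (SE 0.12, adjusted p = 5.48e-05), *blmp-1* with 1.10 (SE 0.10, adjusted p = 2.28e-05), *bed-3* with 0.87 (SE 0.11, adjusted p = 0.000118) and *grh-1* with 0.46 (SE 0.11, adjusted p = 0.00571). *nhr-25* had 0.06, *myrf-1* 0.10 and *nhr-85* -0.45, with adjusted p from 0.226 to 0.710.

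In *csb-1* replicate 2, 4 of 7 factors were lower and 1 of 7 higher than wild-type, where 27.5% of all genes were lower and 22.6% higher. *grh-1* had a log2 fold change of -2.71 (SE 0.13, edgeR's adjusted p = 4.53e-07), *bed-3* of -2.26 (SE 0.14, adjusted p = 1.79e-06), *nhr-25* of -0.74 (SE 0.13, adjusted p = 0.00116) and *nhr-23* of -0.51 (SE 0.13, adjusted p = 0.00991). These 4 were lower under all 3 scalings tried. *myrf-1* was higher, with 0.45 (SE 0.11, adjusted p = 0.00711), but had -0.10 with library size alone (adjusted p = 0.412), and its TPM was 31.005 in this library, against 40.7 and 41.9 TPM in wild-type. *blmp-1* and *nhr-85* had -0.03 and -0.27, and with library size alone both passed the threshold, with -0.58 and -0.82. That scaling moved the median of all genes in this fit to -0.67, from -0.11 with TMM, and the split of calls over all genes to 1752 higher and 8298 lower, from 4109 higher and 4994 lower. The median of all genes then lay between the values of *blmp-1* and *nhr-85*.

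**Figure D4:**
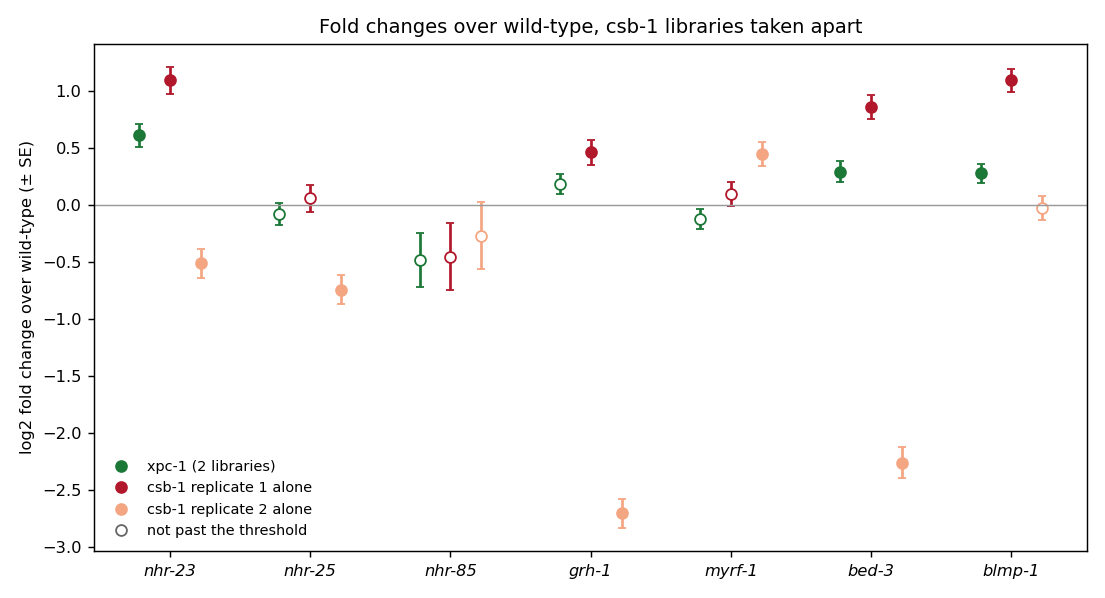
Log2 fold change over wild-type with its standard error (vertical axis) for the 7 factors in *xpc-1*, in *csb-1* replicate 1 alone and in *csb-1* replicate 2 alone, with open points for values past no threshold. *grh-1* and *bed-3* lie at 0.46 and 0.87 in *csb-1* replicate 1 and at -2.71 and -2.26 in replicate 2.

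Set against *csb-1* in the fit of all 6 libraries, *xpc-1* had 0 of 7 factors called and 0% of genes called by edgeR, with 656 genes at an unadjusted p under 0.05 and 179 called by DESeq2. Against *csb-1* replicate 1 alone, 3 of 7 were lower in *xpc-1* and 0 higher, namely *blmp-1* (-0.82), *bed-3* (-0.57) and *nhr-23* (-0.49), where 7.67% of genes were lower and 12.5% higher. Against *csb-1* replicate 2 alone, 5 of 7 were higher, from 0.29 for *blmp-1* to 2.87 for *grh-1*, and 1 was lower, *myrf-1* with -0.59, where 32.4% of genes were higher and 28.0% lower. These fits share the *xpc-1* and wild-type libraries with those above.

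For *nhr-23*, *grh-1*, *bed-3* and *blmp-1* the libraries fell in the same order from low to high: *csb-1* replicate 2, both wild-type, both *xpc-1*, and *csb-1* replicate 1. This order, which was noticed after the values had been seen, held for 4 of the 7 factors and for 14.5% of all genes tested. In CPM scaled by TMM, *csb-1* replicate 2 was the lowest library for 5 of 7, these 4 and *nhr-25*, as for 37.6% of all genes. That count depends on the scale. In TPM this library was also the lowest for *myrf-1* and *nhr-85*, with 2.94 TPM for *nhr-85* against 4.52 TPM or more in the others. With library size alone it was the lowest for *nhr-85*, with 5.87 CPM against 6.84 CPM or more, but not for *myrf-1*. For *blmp-1* the low end of this order rests on 96.8 CPM in *csb-1* replicate 2, against 98.5 and 99.1 CPM in wild-type. No library was assigned a point of the molting cycle.

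Genes that work with these factors were read beside them. *lin-42*, the homolog of the circadian gene Period, had 117.5 and 119.3 CPM in *xpc-1*, 221 and 9.13 CPM in *csb-1*, and 69.7 and 68.0 CPM in wild-type. It was higher in *xpc-1* (log2 fold change 0.80, SE 0.085, edgeR's adjusted p = 0.000208) and in *csb-1* replicate 1 alone (1.70, adjusted p = 2.53e-06), and lower in *csb-1* replicate 2 alone (-2.91, adjusted p = 3.30e-07). *dre-1*, an F-box protein that promotes the degradation of BLMP-1, had 203 and 213 CPM in *xpc-1*, 307 and 148 CPM in *csb-1*, and 174 and 175 CPM in wild-type. *daf-12*, a nuclear receptor of developmental timing, went the other way in CPM. It had 66.4 and 66.0 CPM in *xpc-1*, 45.7 and 128 CPM in *csb-1*, and 99.7 and 89.3 CPM in wild-type. In TPM both *csb-1* libraries lay under wild-type, with 18.2 and 23.6 TPM against 33.5 and 29.9 TPM, so its high value in replicate 2 depends on the scale. Of the 7 partner genes, which also include *kin-20*, *myrf-2*, *pan-1* and *lin-29*, 2 passed as higher and 1 as lower in *xpc-1*, 4 and 2 in *csb-1* replicate 1 alone, and 2 of each in *csb-1* replicate 2 alone, where library size alone gave 0 higher and 5 lower. Over all genes tested the shares were 20.0% higher and 17.1% lower in *xpc-1*, 26.9% and 26.1% in *csb-1* replicate 1 alone, and 22.6% and 27.5% in *csb-1* replicate 2 alone, and with counts this small nothing is read from the partner list as a whole.

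The genes switched on by the molting program had larger median changes than the factors in the same 3 fits. Of 12 molting output genes, such as the protease inhibitor *mlt-11* and the cuticle matrix genes *noah-1* and *fbn-1*, 9 were higher and 0 lower in *xpc-1*, with a median log2 fold change of 0.76. In *csb-1* replicate 1 alone 10 were higher and 1 lower, with a median of 1.33, and in *csb-1* replicate 2 alone 0 were higher and 11 lower, with a median of -4.22, beside the same shares of all genes as given for the partners. These directions held under all 3 scalings. *mlt-11* had 573 and 619 CPM in *xpc-1*, 1045 and 1.35 CPM in *csb-1*, and 292 and 317 CPM in wild-type. *noah-1* had 697 and 705 CPM in *xpc-1*, 1246 and 10.97 CPM in *csb-1*, and 346 and 347 CPM in wild-type. The order of libraries described for *nhr-23* held for 9 of the 12. The exceptions were *lrp-1*, whose *xpc-1* and wild-type values overlapped, and the molting proteases *nas-36* and *nas-37*, which stayed at or under 9.25 CPM in every library.

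The summed CPM of the 12 output genes was 6.20 and 5.93 times that of the 7 factors in *xpc-1*, 7.59 and 0.972 times in *csb-1*, and 4.12 and 3.78 times in wild-type. The output genes were further under wild-type than the factors in *csb-1* replicate 2, where their sum was 362 CPM, against 2159 and 2112 CPM in wild-type, while that of the factors was 373 CPM, against 524 and 559 CPM in wild-type. *lrp-1*, a megalin-like receptor, gave 297 of these 362 CPM. Without it, left out after its values were seen, the ratio was 5.21 and 5.16 in *xpc-1*, 6.52 and 0.175 in *csb-1*, and 3.01 and 2.98 in wild-type. The 6 furrow collagens summed to 797 and 842 CPM in *xpc-1*, 1324 and 6.98 CPM in *csb-1*, and 442 and 402 CPM in wild-type. Of these, *dpy-7* had 2 reads in *csb-1* replicate 2, against 5346 and 4603 reads in wild-type. *dpy-8* and *dpy-9* were at or under 3.20 CPM in every library and were not called in *xpc-1* with TMM. The 8 other cuticle collagens, *sqt-3* and *dpy-17* among them, summed to 5090 and 5122 CPM in *xpc-1*, 8481 and 9.88 CPM in *csb-1*, and 3171 and 3073 CPM in wild-type, and *sqt-3* and *dpy-17* carried these sums in 5 libraries. *sqt-3* had 3129 and 3028 CPM in *xpc-1*, 5147 and 1.72 CPM in *csb-1*, and 1958 and 1864 CPM in wild-type. The other 6, summed without this pair after the values had been seen, had 42.9 and 39.2 CPM in *xpc-1*, 16.6 and 5.02 CPM in *csb-1*, and 58.5 and 48.7 CPM in wild-type. This sum was thus not high in *csb-1* replicate 1, but it does not speak for each gene. *col-12* gave 40.1 and 31.9 CPM of it in wild-type and 7.90 CPM in *csb-1* replicate 1. *dpy-5* was highest in *csb-1* replicate 1, with 4.57 CPM against 4.36 CPM or less in the others. Of the 8 genes, 2 were higher and 2 lower in *xpc-1*, where 20.0% of all genes tested were higher and 17.1% lower. Their median log2 fold change was -0.29 in *xpc-1*, -0.98 in *csb-1* replicate 1 alone and -4.92 in *csb-1* replicate 2 alone.

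**Figure D5:**
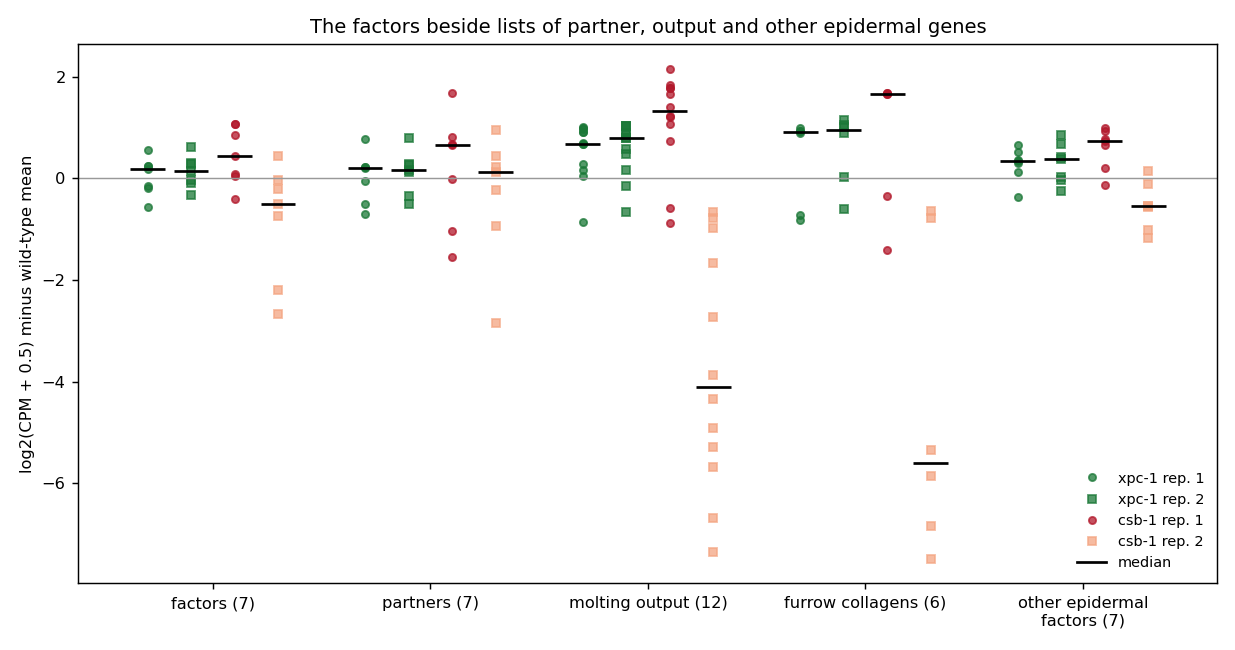
Difference of log2(CPM + 0.5) from the wild-type mean (vertical axis) for the 7 factors, 7 partner genes, 12 molting output genes, 6 furrow collagens and 7 other epidermal factors in the *xpc-1* and *csb-1* libraries, with a bar at each median. The output genes and furrow collagens reach far lower in *csb-1* replicate 2 than the factors, and the other epidermal factors lie in the same range as most of the 7.

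Epidermal transcription factors outside the oscillator set were read beside it. The 7 genes *elt-1*, *elt-3*, *elt-6*, *egl-18*, *lin-26*, *ceh-16* and *lin-22* summed to 434 and 486 CPM in *xpc-1*, 571 and 228 CPM in *csb-1*, and 329 and 376 CPM in wild-type. In *xpc-1* 3 were higher and 1 lower, in *csb-1* replicate 1 alone 5 higher and 0 lower, and in *csb-1* replicate 2 alone 0 higher and 5 lower, where 20.0% of all genes were higher and 17.1% lower, 26.9% higher and 26.1% lower, and 22.6% higher and 27.5% lower in these fits. Their medians were 0.27, 0.75 and -0.56, against 0.18, 0.46 and -0.51 for the 7 oscillator factors in the same 3 fits. *egl-18*, a GATA factor of the seam cells, had 155 and 178 CPM in *xpc-1*, 196 and 47.8 CPM in *csb-1*, and 88.997 and 108 CPM in wild-type, and it also fell in the order described for *nhr-23*.

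These are whole larvae, and in such samples fewer cells of a type and less RNA per cell cannot be told apart. Markers of other tissues were present in every library. The 6 intestine markers summed to 840 and 925 CPM in *xpc-1*, 652 and 4305 CPM in *csb-1*, and 1209 and 1358 CPM in wild-type. The 5 pharynx markers summed to 1232 and 1259 CPM in *xpc-1*, 821 and 4848 CPM in *csb-1*, and 1710 and 1859 CPM in wild-type. Both sums were highest in the library where most of the factors were lowest. The 6 muscle markers summed to 6986 and 7250 CPM in *xpc-1*, 4974 and 10656 CPM in *csb-1*, and 9655 and 10563 CPM in wild-type, and the 7 neuron markers to 813 and 859 CPM in *xpc-1*, 659 and 1408 CPM in *csb-1*, and 1196 and 1205 CPM in wild-type. The proprotein convertase *egl-3* gave 718 CPM of the neuron sum in *csb-1* replicate 2, and the other 6 neuron markers, summed after the values had been seen, had 612 and 644 CPM in *xpc-1*, 556 and 690 CPM in *csb-1*, and 784 and 764 CPM in wild-type. Against wild-type, *csb-1* replicate 2 alone had median log2 fold changes of 1.42 for the intestine markers and 1.13 for the pharynx markers. The muscle markers had a median of -0.03 and the neuron markers of -0.22, where all genes tested had -0.11. With library size alone these medians were 0.86, 0.57, -0.58 and -0.77, where all genes tested had -0.67. The pharynx and muscle lists held genes that went each way. The actin *act-5* gave 2706 CPM of the intestine sum and the myosin *myo-2* 2621 CPM of the pharynx sum in that library. The 6 adult vitellogenins summed to at most 8.44 CPM in any library. The part of these tissues in the levels of the factors was not tested.

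The genes whose profile over the 6 libraries was most like that of a factor were found among 9133 protein-coding genes with a mean of at least 10 CPM, by the root mean square difference of centred log2 CPM. The nearest to *nhr-23* were *chmp-7* (0.036) and *git-1* (0.048), and to *nhr-25* *vab-9* (0.052) and *unc-97* (0.055). *grh-1* was nearest to *T25D10.4* (0.058) and *sel-7* (0.082), and *bed-3* to *ZC443.3* (0.055) and *gldi-4* (0.075). *blmp-1* was nearest to *ztf-6* (0.047) and *C34C12.6* (0.064), *myrf-1* to *C14B4.2* (0.026) and *F36A2.9* (0.039), and *nhr-85* to *cav-2* (0.13) and *twnk-1* (0.13). Within the set, *grh-1* and *bed-3* were nearest to each other, at a distance of 0.19, with 32 other genes closer to *grh-1* and 35 closer to *bed-3*. *nhr-23* and *blmp-1* were also each other's nearest factor, at 0.28, but 1222 other genes were closer to *nhr-23* and 1540 to *blmp-1*. These distances describe 6 libraries.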

How the data were processed

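RNA-seq of whole L1 larvae was analysed for 2 libraries each of *xpc-1*, *csb-1* and wild-type, grouped by genotype label. The authors trimmed and aligned paired reads with STAR, kept proper pairs with high mapping quality, removed mitochondrial reads and counted reads on exons. The deposited unit is raw counts per gene, without normalization. Per the file headers, featureCounts 2.0.4 was used with the Ensembl annotation of WBcel235, release 105, whereas the methods name WS295. Neither strand nor read pairs were used in counting, although the kit was stranded, so both mates were counted and antisense reads cannot be told apart. Between 41643033 and 48371365 reads per library were on genes. No 2 libraries of a strain agreed within counting error, so each was 1 replicate.

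Here, CPM were scaled with TMM factors, and TPM were derived by dividing counts by exon length. Genes that reached 10 counts in 2 or more libraries entered the quasi-likelihood test of edgeR, adjusted by Benjamini-Hochberg over all genes tested with a threshold of 0.05. The *xpc-1* and wild-type libraries were fitted alone, and comparisons with *csb-1* used all 6 libraries. The study's methods, as read here, describe no test of expression between strains. A prior count of 2 was added in log2 ratios. The text names the 7 factors, genes of 11 lists, and the 2 genes nearest to each factor. The factors and lists were chosen with earlier results of these data known. The fits of a single *csb-1* library under other scalings and the order of libraries were chosen after seeing the data. Alternatives were DESeq2, other scalings, other filters, other libraries in the fit, a replicate block and leaving out each library. The tools were edgeR 4.0.16 and DESeq2 1.42.0 in R 4.3.3, and scipy 1.17.1, pandas 2.3.3, numpy 2.4.6 and matplotlib 3.10.9 in Python 3.11.15. Damage, repair and chromatin data were not analysed here, and gene types were read from Ensembl release 115.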

Additional observations from a re-analysis of the deposited data

How the results depend on the processing

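The calls in *xpc-1* against wild-type depended on the settings: 3 of 7 factors were called with TMM, 1 with upper-quartile factors, 0 of 7 factors and 0 genes with all 6 libraries in the fit, and 5 with the replicate block, which added *grh-1* (adjusted p = 0.0103) and *nhr-85* (adjusted p = 0.0342) in edgeR's test. The labels give no pairing by replicate number, and replicate 1 minus replicate 2 correlated across genes at 0.0169 for *xpc-1* with *csb-1*, 0.126 for *xpc-1* with wild-type and -9.21e-05 for *csb-1* with wild-type. With 1 library left out, 1 to 2 factors were called in *xpc-1* against wild-type, 0 to 5 in *csb-1* against wild-type and 0 to 6 in *xpc-1* against *csb-1*. The genes called were then 0 to 9641 in *csb-1* against wild-type and 0 to 10980 in *xpc-1* against *csb-1*. DESeq2 called 512 and 179 genes in these 2 comparisons, where edgeR called 0, and the cause was not tested.

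In *csb-1* against wild-type, *bed-3* had -0.080 under upper-quartile scaling, -0.0083 under library size alone and -0.40 with the replicate block, against 0.01. With 1 library left out, the log2 fold change ran from -2.26 to 0.87 for *bed-3*, -2.71 to 0.46 for *grh-1*, -0.51 to 1.10 for *nhr-23*, -0.74 to 0.059 for *nhr-25*, -0.67 to 0.037 for *nhr-85* and -0.029 to 1.10 for *blmp-1*. In *xpc-1* against *csb-1* it ran from -0.57 to 2.54 for *bed-3*, -0.28 to 2.87 for *grh-1*, -0.49 to 1.11 for *nhr-23*, -0.14 to 0.65 for *nhr-25* and -0.82 to 0.29 for *blmp-1*, and *nhr-85* had 0.13 with library size only. In *csb-1* replicate 1 alone, *nhr-25* had -0.044 and *myrf-1* -0.0063 with upper-quartile factors, and in replicate 2 alone *myrf-1* had -0.10 with library size only. The median ratio of the factors between the *csb-1* libraries was 1.70 with library size only, against 1.11, with 0.39 for *nhr-85* and 0.22 for *myrf-1*. Precision was lowest for *nhr-85*, with 284 to 577 reads per library, and 2 libraries per strain limit every test.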

Other observations

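The 5 germline markers *pgl-1*, *pgl-3*, *glh-1*, *glh-2* and *nos-2* summed to 110 and 112 CPM in *xpc-1*, 155 and 69.8 CPM in *csb-1*, and 56.6 and 50.8 CPM in wild-type. By edgeR's test 5 of 5 were higher in *xpc-1*, where 20.0% of all genes tested were higher and 17.1% lower. With upper-quartile factors 4 of 5 were higher in *xpc-1*. The median log2 fold change over wild-type was 1.68 in *csb-1* replicate 1 alone and 0.45 in *csb-1* replicate 2 alone. In replicate 2 it was -0.11 with library size alone. *nos-2*, a gene of the primordial germ cells, had 1523 and 1680 reads in *xpc-1*, 1622 reads in *csb-1* replicate 1 and 0 reads in *csb-1* replicate 2, against 468 and 389 reads in wild-type. This gene thus shared its lowest library with *grh-1* and *bed-3*, while *pgl-1* had 23.4 CPM in *csb-1* replicate 2, against 10.5 and 11.2 CPM in wild-type.

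Within the intestine list the GATA factors *elt-2* and *elt-7* differed little between the *csb-1* libraries, with 28.6 and 28.7 CPM for *elt-2* and 14.4 and 11.2 CPM for *elt-7*. The structural and transport genes of the same list differed strongly, with 247 and 2706 CPM for the actin *act-5* and 74.7 and 574 CPM for the peptide transporter *pept-1*. In TPM *act-5* and *pept-1* were also higher in replicate 2, with 300 and 1525 TPM for *act-5* and 41.7 and 149 TPM for *pept-1*. In the pharynx list *myo-2* had 301 and 2621 CPM in the *csb-1* libraries, while the factors *pha-4* and *ceh-22* had 215 and 118.9 CPM and 25.9 and 11.1 CPM. In the pharynx list the directions were thus opposite, with these 2 factors lower and *myo-2* higher in replicate 2. Most of the oscillator factors and most of the molting output genes were lower in replicate 2, by unlike amounts. All these values are of whole larvae, and no tissue was measured apart.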
